A study of Caenorhabditis elegans with 2 samples.

Results

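The 9 genes described here act together in the making of dense core vesicles, the organelles from which neurons release neuropeptides. They were taken as a named list from the WBcel235 gene models, and all 9 of 9 names matched, out of 19973 protein-coding genes on 6 chromosomes. They are unc-108, which encodes the small GTPase Rab2, the genes of its effectors and partners ric-19, tbc-8, rund-1 and cccp-1, and the EARP tether subunit genes vps-50, vps-51, vps-52 and vps-53. A peak was counted for a gene when its summit lay within 5000 bp of the start of one of its protein-coding transcripts or inside the gene, which is called the reach of the gene below.

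Dense core vesicles bud from the trans-Golgi and mature as cargo is sorted and unwanted membrane proteins are removed. Rab2 in its active form recruits effectors in the Golgi and endosomal region, and loss of these genes in Caenorhabditis elegans is known to reduce dense core vesicle cargo in axons. EARP, the endosome-associated recycling protein complex, is a tether that shares VPS-51, VPS-52 and VPS-53 with the Golgi-associated GARP complex, while VPS-50 is its own subunit. ZAG-1 is a zinc finger and homeodomain factor of the ZEB class that helps neurons to differentiate and to extend axons.

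The series measured the binding of ZAG-1 by chromatin immunoprecipitation and sequencing. The animals were larvae at the L1 stage of strain OP83, with males and females mixed, which carry the mutation unc-119(ed3) III and the transgene wgIs83, a GFP-tagged zag-1. There was 1 group with 2 biological replicates, so no conditions were compared and no test was made. Whole animals were used, so a value does not say in which cells a site was bound. The antibody field names zag-1 and the description names a GFP fusion, so it is unclear which was precipitated and whether untagged ZAG-1 contributes to the peaks. The control is not analysed here, and the sequencing depth of either library is unknown.

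The values are those of 4 deposited peak lists on ce11. The lists of replicate 1, of replicate 2 and of both pooled hold 30000 entries each and are named as peaks with background, and the optimal list holds the 478 pooled entries of highest signal. Rank 1 is the entry of highest signal in a list. The signal value is the authors' own, on a scale that no source used here states, and it serves only to rank entries within a list. The pooled list ran from 7.45 to 179.6 with a median of 10.15, and the optimal list ended at 29.6.

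Of the 9 genes, 3 had an optimal peak in reach, vps-51, unc-108 and rund-1, where 5.52% of all protein-coding genes had one. The genes were selected on the rank by signal, distance, location and replicate agreement of entries in these lists, so the counts and ranks are descriptions. With each optimal peak given only to the gene of the nearest start, the count was again 3 of 9, where 2.18% of all genes had one. Each role had 1 gene with an optimal peak: the Rab2 gene itself, 1 of 4 effector and partner genes and 1 of 4 EARP genes. A pooled entry was in reach of 9 of 9 genes, and of 91.2% of all genes, so an entry in that list says little by itself. The highest pooled entry ranked 11 at vps-51, 36 at unc-108, 307 at rund-1, 1097 at ric-19, 1270 at vps-50, 4872 at cccp-1, 12372 at vps-53, 13151 at tbc-8 and 21763 at vps-52. The median over the genes was 1270, against 6574 over the 18218 protein-coding genes with a pooled entry. With the nearest start only it was 8582, against 10069 over the 12581 genes that then kept an entry. It was 3843 in replicate 1 alone, against 6326 over the 18773 genes with an entry there. In replicate 2 alone it was 5264, against 6743 over 18258 genes. Of the 9 genes, the lowest inside the optimal list was rund-1 with a signal of 34.95, and the highest outside it was ric-19 with 21.9.

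**Figure D1:**
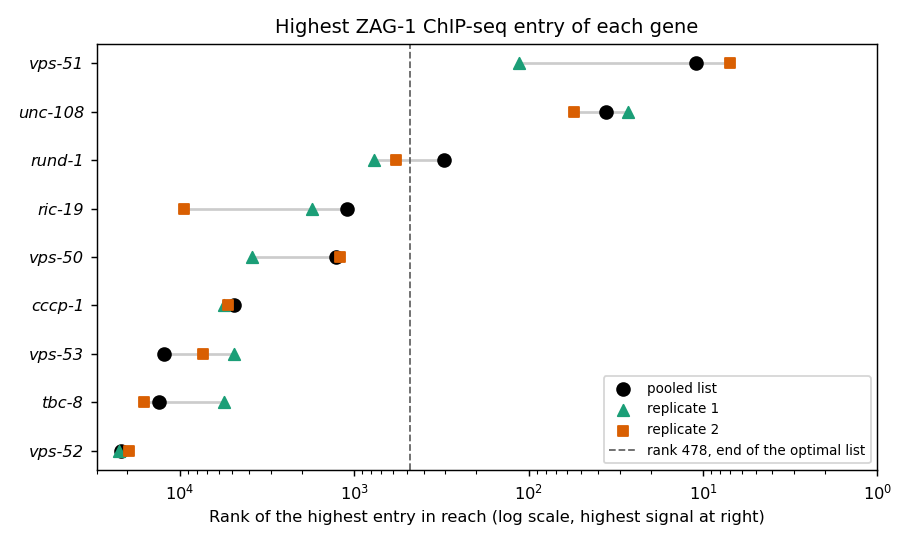
The rank of the highest entry in reach of each gene in the pooled list (circles), replicate 1 (triangles) and replicate 2 (squares), on a log axis with the highest signal at the right. The dashed line is rank 478, the end of the optimal list; vps-51 and unc-108 are to the right of it in every list, and rund-1 in the pooled list alone.

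The sequence at the summit is shown for 3 genes, because they differ in rank and in the short words they hold. They are rund-1, whose pooled entry ranked 307, vps-50, at rank 1270, and tbc-8, at rank 13151. Each line gives the 201 bases centred on the summit of the highest pooled entry, read 5′ to 3′ on the plus strand of the WBcel235 RefSeq genome, at chrX:662029-662229, chrIII:10868885-10869085 and chrIII:10368504-10368704. Capitals mark CGTCTC and TCTCTC, the latter being GAGAGA read on the other strand.
rund-1: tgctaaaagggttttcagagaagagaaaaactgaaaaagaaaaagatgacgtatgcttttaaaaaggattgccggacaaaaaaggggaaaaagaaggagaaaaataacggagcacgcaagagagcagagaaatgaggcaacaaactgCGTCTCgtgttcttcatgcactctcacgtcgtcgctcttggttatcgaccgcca
vps-50: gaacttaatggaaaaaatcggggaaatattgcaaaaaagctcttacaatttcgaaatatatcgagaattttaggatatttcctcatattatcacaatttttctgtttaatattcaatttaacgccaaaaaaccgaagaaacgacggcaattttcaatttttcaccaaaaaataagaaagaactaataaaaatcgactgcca
tbc-8: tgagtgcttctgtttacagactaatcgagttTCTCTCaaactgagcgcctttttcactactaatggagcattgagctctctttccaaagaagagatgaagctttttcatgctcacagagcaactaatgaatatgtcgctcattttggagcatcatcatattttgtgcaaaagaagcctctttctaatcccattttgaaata
The rund-1 window held 1 CGTCTC and no GAGAGA, the vps-50 window neither, and the tbc-8 window 1 GAGAGA although its rank was the lowest of the 3. The GC content was 42.8% in the rund-1 window, 28.4% in that of vps-50 and 37.8% in that of tbc-8. Optimal windows averaged 43.25% and all pooled windows 33.07%.

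unc-108 encodes Rab2, the GTPase that recruits the effectors of this pathway. Its highest entry was inside the gene, at I 3824245 to 3824588, where its signal was 68.2 and its −log10 q was 2.58 (all coordinates are on ce11). The summit was in an intron, 1534 bp downstream of the first annotated start and 530 bp upstream of the next, which belongs to a shorter transcript. The same summit was also in reach of mpc-2 and F53F10.8, whose starts were 2802 and 3822 bp away, but unc-108 had the nearest start. In replicate 1 the overlapping entry had rank 27 and a signal of 30.8, with its summit 0 bp from the pooled one. In replicate 2 it had rank 55 and a signal of 39.55, with its summit 73 bp away. Both replicates thus placed this intron among their 478 highest entries. A further 8 pooled entries were in reach of unc-108, and the next in signal, 21.1 at rank 1217, was in an intron 690 bp downstream of the first start. The entry directly before that start, 195 bp upstream, had a signal of 17.7 and rank 2192, so the first promoter of the gene did not hold its highest entry.

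Among the effector and partner genes, rund-1 stood highest. RUND-1 is a RUN domain protein that binds Rab2 and TBC-8 in Caenorhabditis elegans. Its optimal peak was at X 661957 to 662300 with a signal of 34.95, in intergenic sequence 352 bp upstream of the start. The neighbouring gene on that side, T19D7.5, lies on the same strand with a gap of 2936 bp, and its start was 4096 bp from the summit. The overlapping entry had rank 774 and a signal of 10.9 in replicate 1, and rank 579 and a signal of 19.6 in replicate 2, with summits 49 and 35 bp away. Neither replicate alone therefore ranked this site among its 478 highest, which was so for 38 of the 478 optimal peaks (7.95%). rund-1 had 11 pooled entries in its reach, the most of the 9 genes, where the median protein-coding gene had 3. This was not so in the replicate lists. In replicate 1 it had 6, against 8 at vps-51 and 7 at unc-108. In replicate 2 it had 7, against 10 at unc-108. The second of the pooled entries, 238 bp from the start of T19D7.5, had a signal of 19.6 and rank 1523.

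ric-19 encodes the worm relative of the islet autoantigen ICA69, a Rab2 effector. Its highest pooled entry was at I 3781996 to 3782339, with a signal of 21.9 and rank 1097. The summit was 478 bp upstream of ric-19 but only 50 bp downstream of the start of pmlr-1, in a coding exon of that gene, which is divergent from ric-19 across a gap of 427 bp. When entries went only to the gene with the nearest start, ric-19 was left with an intronic entry of rank 15769. The replicates ranked the promoter entry very differently, at 2484 in replicate 1 and 20894 in replicate 2. Replicate 2 also had an entry of rank 12589, with its summit 5 bp downstream of the ric-19 start, which did not overlap the pooled one. A rank beyond 20000 in replicate 2 was found for 8 of the 1022 pooled entries ranked 479 to 1500 (0.783%). Of these 1022, 1011 overlapped any entry of replicate 2, and the others had none there. A second pooled entry, of rank 1477, was 3361 bp upstream of ric-19. The highest entry of ric-19 in each replicate was there, with rank 1745 in replicate 1, 3367 bp upstream, and rank 9529 in replicate 2, 3361 bp upstream.

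tbc-8 encodes a Rab GTPase-activating protein of the TBC family that binds RIC-19 and RUND-1, and cccp-1 a coiled-coil Rab2 effector. At tbc-8 the highest of 5 pooled entries had a signal of 10.6 and rank 13151. It was in an intron, 162 bp upstream of the second annotated start at III 10368766 and 3648 bp downstream of the first. Replicate 1 had an overlapping entry of rank 5599, with its summit 5 bp away, and replicate 2 had none that overlapped. At cccp-1 the highest of 6 pooled entries had a signal of 14.3 and rank 4872 and was in an intron near the end of the gene, 10861 bp downstream of the start. The start of arrd-16 was closer to it, at 992 bp. The cccp-1 promoter entry, 174 bp upstream, had rank 14697 in the pooled list, and in replicate 1 it was the highest in reach, at rank 5548. In replicate 2 the highest was 1509 bp downstream, at rank 5264, so the 3 lists each placed the highest entry of cccp-1 elsewhere.

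**Figure D2:**
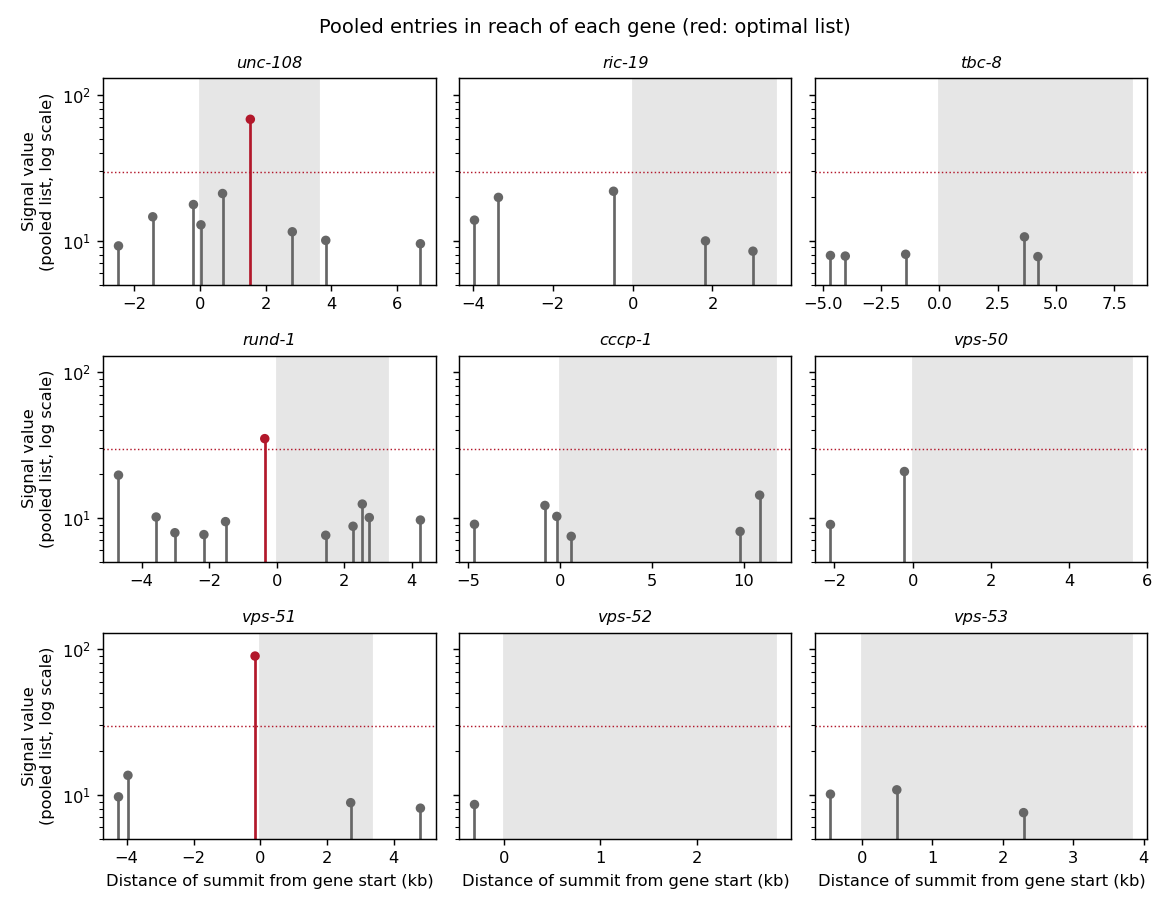
Signal of every pooled entry in reach of each gene (log axis) against the distance of its summit from the first start, in kb in the direction of transcription. Grey bands are gene bodies, red stems are optimal peaks and the dotted line is the lowest optimal signal, 29.6; the optimal peaks of vps-51 and rund-1 are just before the start and that of unc-108 is inside the gene.

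The 4 EARP genes ranged widely, from rank 11 at vps-51 to rank 21763 at vps-52. vps-51 encodes a subunit that EARP and GARP share, whose yeast counterpart binds a SNARE protein. Its optimal peak was at I 5807276 to 5807619 with a signal of 89.8 and a −log10 q of 2.58, in intergenic sequence 157 bp upstream of the start. Of the 19973 genes, 42 had an entry as high in reach, vps-51 counted. The peak was also 261 bp upstream of lin-35, the worm retinoblastoma gene, which is transcribed away from vps-51 across a gap of 417 bp, so the peak cannot be given to one of them from its position. The overlapping entry had rank 114 and a signal of 20.3 in replicate 1, and rank 7 and a signal of 67.2 in replicate 2, with summits 0 and 38 bp away. The next pooled entry in reach of vps-51 had a signal of 13.6 and rank 5823.

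vps-50, the gene of the subunit particular to EARP, had its highest pooled entry at III 10868813 to 10869156, with a signal of 20.8 and rank 1270. It too was between divergent genes, 208 bp upstream of vps-50 and 282 bp upstream of cey-4, with a gap of 489 bp. In replicate 2 the overlapping entry had rank 1208, a signal of 15.7 and a summit 9 bp away. In replicate 1 the overlap was 56 bp with an entry of rank 24245 and a signal of 3.82, whose summit was 288 bp away. That summit was 6 bp from the start of cey-4, so the 2 replicates are not shown to mark the same site. The highest entry of vps-50 in replicate 1 was elsewhere, in a UTR 5352 bp downstream of the start, at rank 3843. An overlapping entry ranked beyond 20000 in replicate 1 was found for 50 of the 1022 pooled entries ranked 479 to 1500 (4.89%). Only 911 of these 1022 overlapped any entry of replicate 1, and the others had none there.

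vps-52 and vps-53, whose products are shared by EARP and GARP, had low pooled entries only. The single pooled entry of vps-52 was 301 bp upstream of its start, at X 7564850 to 7565193, with a signal of 8.73 and rank 21763. Replicate 2 had an overlapping entry of rank 19467 and replicate 1 had none. The highest of 3 pooled entries of vps-53 had a signal of 10.8 and rank 12372, and was in a coding exon 499 bp downstream of the first start. Replicate 2 overlapped it at rank 7353 and replicate 1 did not. The highest entry of vps-53 in replicate 1 was elsewhere, in a coding exon 985 bp downstream of a start, at rank 4897 with a signal of 6.95. The lists mix peaks with background and do not mark where one ends, so no difference between genes is read from such ranks.

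An entry among the 478 highest of replicate 1 that overlapped one among the 478 highest of replicate 2 was in reach of 2 of the 9 genes, unc-108 and vps-51, and of 2.69% of all genes. Among the 1000 highest of each replicate, rund-1 joined them, which made 3 of 9 where 4.35% of all genes had such an entry. Among the 5000 highest the count was again 3 of 9, with the same genes, and 11.21% of all genes. The highest pooled entry overlapped an entry of both replicates, at any rank, at 5 of the 9 genes, unc-108, rund-1, vps-51, ric-19 and vps-50. This was so for 97.7% of optimal and 31.97% of all pooled entries. Those shares are over entries of any rank in each list, not over the highest entry of each gene, so they are not a like comparison. In position, 7 of the 9 genes had their highest pooled entry within 500 bp of one of their starts, where 16% of the 18218 genes with a pooled entry did. The exceptions were unc-108 and cccp-1. Many worm transcripts are trans-spliced, so an annotated start can lie downstream of the site where transcription begins.

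The windows were searched for GAGAGA and CGTCTC, words that earlier results of these data had put forward, on both strands in the 201 bases around each summit. On the same strand, the last 4 bases of CGTCTC can also begin a match to the reverse of the other word. In all, GAGAGA was in 4 of the 9 windows, those of unc-108, vps-51, ric-19 and tbc-8, against 49.4% of optimal and 12.9% of pooled windows. The unc-108 window held 3 matches that did not overlap, centred 14.5, 24.5 and 32.5 bp from the summit on the same side. Windows with 3 or more matches, overlapping ones counted, made up 18.4% of optimal and 2.00% of pooled windows. The vps-51 window held 1 match centred 19.5 bp from the summit, and those of ric-19 and tbc-8 held 1 each, at 96.5 and 66.5 bp. With windows of 101 bases the count was 2, at unc-108 and vps-51, against 34.5% of optimal and 7.10% of pooled windows.

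CGTCTC was in 1 of the 9 windows, that of rund-1, centred 49.5 bp from the summit, against 36.4% of optimal and 6.24% of pooled windows. Each of the 3 optimal peaks thus held one of the 2 words and none held both, while 24.1% of optimal windows held both and 38.3% held neither. With windows of 101 bases CGTCTC was in 0 of the 9, so the rund-1 window then held neither word. The windows of vps-50, cccp-1, vps-52 and vps-53 held neither, as did 83.4% of pooled windows. CAGGTA or CAGGTG, the E-box forms known for ZEB-class proteins, was in 0 of the 9 windows, against 3.56% of optimal and 7.92% of pooled windows. GC content ran from 23.4% at vps-52 to 48.8% at unc-108. That of vps-51, 36.8%, was below the optimal mean of 43.25%, so the highest peak of the group was not in the most GC-rich window. A match describes these letters and shows neither a binding site nor its absence.

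**Figure D3:**
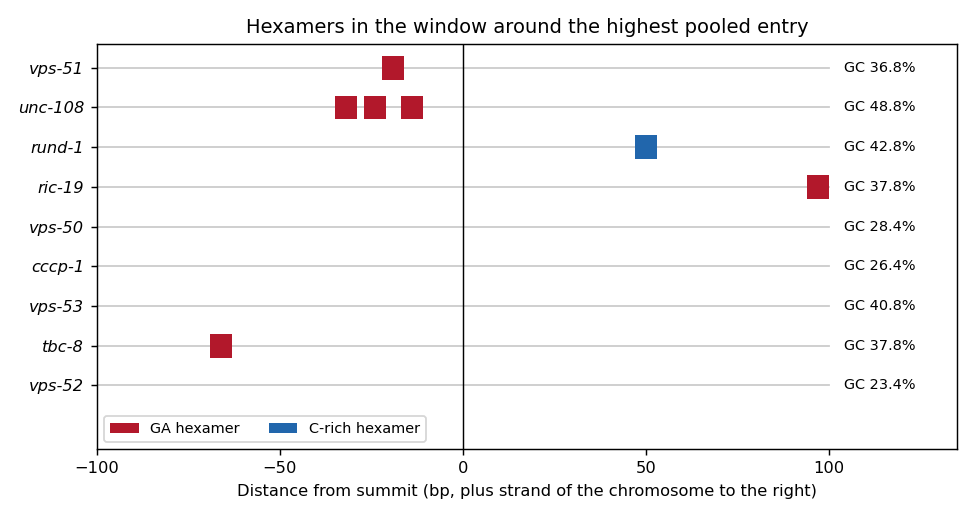
Positions of GAGAGA (red, GA hexamer) and CGTCTC (blue, C-rich hexamer) on either strand in the 201 bases around the summit of the highest pooled entry of each gene, ordered by rank, in bp from the summit. The 3 optimal peaks, in the upper rows, hold matches within 52 bp of the summit; GC content of the window is at the right.

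Other genes of dense core vesicle biogenesis, transport and cargo processing also ranged from the optimal list to low ranks. Of 18 matched genes, 6 (33.3%) had an optimal peak in reach, where 5.52% of all genes had one. This list was drawn up with earlier results known, which had already shown peaks at some of these genes. The highest was egl-3, whose product cleaves neuropeptide precursors, at rank 114 and 1086 bp upstream of the start, with overlapping entries of rank 113 and 111 in the replicates. It was also the only one of the 18 with an overlapping entry among the 478 highest of both replicates. The carboxypeptidase gene egl-21 followed at rank 313, 87 bp upstream. The others were the Rab gene rab-10 at rank 364, the priming factor gene unc-31 at rank 398, the kinesin gene unc-104 at rank 418, 31 bp upstream of the start, and sbt-1, a chaperone gene for EGL-3, at rank 472. The peak counted for rab-10 was nearer the start of knl-2. The genes closest to EARP and its partners had none. vps-54, the GARP counterpart of vps-50, had its highest entry at rank 1475, 5 bp from the start of erh-1, and eipr-1, the gene of the EARP-interacting protein, at rank 2733. hid-1, which acts in vesicle biogenesis at the trans-Golgi, had an entry of rank 5848 at 13 bp from its start.

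Of 22 matched Rab GTPase genes other than unc-108, 4 had an optimal peak in reach (18.2%), of which rab-10 is counted above. rab-3, the synaptic vesicle Rab, had rank 138 with its summit in an intron, as at unc-108, but the replicates ranked it at 5379 and 35. rab-18 had rank 140 with a summit 11 bp from its start and ranks of 211 and 225 in the replicates. rab-7 had rank 391, with a summit 811 bp from its start but 198 bp from that of W03C9.5. unc-108, at rank 36, was the highest of these Rab genes. Of 19 other matched Rab GAP genes, with tbc or rbg names, 3 had an optimal peak in reach (15.8%). These were tbc-20, tbc-12 and tbc-19 at ranks 48, 182 and 243. Their summits were 3312, 4176 and 4446 bp from their own starts. The tbc-20 summit was 244 bp from the start of eif-3.B, and the tbc-19 summit 1497 bp from that of C04C11.25. Of 23 matched genes of the COG, exocyst, HOPS and CORVET tethers, 1 had an optimal peak in reach (4.35%), sec-15 at rank 131. Its summit was 31 bp from the start of C28G1.2. The median rank of the highest pooled entry was 2104 for the dense core vesicle genes, 2654 for the Rab genes and 2354 for the tbc and rbg genes. It was 4904 for the tethers, against 6574 over all genes with a pooled entry.

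**Figure D4:**
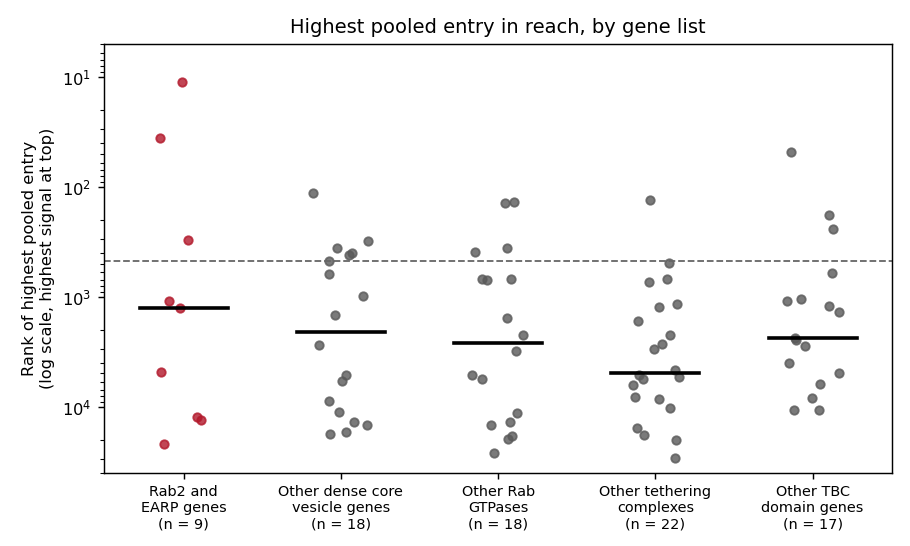
Rank of the highest pooled entry in reach of each gene (log axis, highest signal at the top) for the 9 Rab2 and EARP genes and for 4 other lists, with bars at the medians. The dashed line is rank 478; 3 of the 9 genes are above it, and n counts the genes with a pooled entry. The list labelled TBC domain genes also holds genes with rbg names.

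The genes whose ranks were most like those of the 3 genes with an optimal peak were found over 16796 genes with entries in all 3 lists, by the distance between the log10 ranks of their highest entries. The nearest to unc-108 were scm-1, with ranks of 28 in the pooled list, 26 in replicate 1 and 52 in replicate 2 at a distance of 0.113, and hsp-90, at 0.122. For rund-1 they were rnp-7 (0.109) and taf-11.2 (0.117), with pooled ranks of 389 and 395. For vps-51 they were rpn-8 (0.365) and nspg-9 (0.399), with pooled ranks of 8 and 13. scm-1, rnp-7, taf-11.2 and rpn-8 were more than 1000 bp from the summit that was counted for them, and that summit was counted for other genes too.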

How the data were processed

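Peak lists for ZAG-1 in L1 larvae were used as deposited by the authors on ce11: 1 list for each of 2 biological replicates, 1 on both replicates pooled, and the optimal list, thresholded on the irreproducible discovery rate per the file names. Entries were called against a control alignment, per the release notes. No source used here gives the aligner, the peak caller or its threshold. Each entry has a signal value and a −log10 q, both as deposited by the authors. The 4 lists on ce10 were not used here.

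Entries were ranked by signal within a list. Gene models were those of Ensembl release 115 for WBcel235, which is the build ce11, and sequence came from the RefSeq genome of that assembly. Entries were counted for every gene in reach, so 1 entry can count for several genes. A TSS window is 500 bp on each side of a start, and replicate entries overlapped when they shared 1 bp or more. The assignment, overlap and word search were tested on simulated data. Python 3.11.15, pandas 2.3.3, numpy 2.4.6 and matplotlib 3.10.9 were used.

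The genes, the other lists and the words were chosen with earlier results of these data known. The rule for named genes takes all 9 genes, up to 4 genes of highest signal with an optimal peak in each other list, and the 2 genes most like each gene with an optimal peak. The further dense core vesicle genes named (unc-104, sbt-1, vps-54, eipr-1 and hid-1) were chosen after their values were seen. List names that matched no gene model were tbc-4, tbc-15, rab-27, cogc-7 and exoc-1 to exoc-6, and were left out. Names alone were matched, so a gene whose name was left out may still be counted under another name. No test was made, since there was 1 group and the genes were chosen on these values. Alternatives changed the reach, the lists, the overlap rule, the ranking and the word windows.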

Additional observations from a re-analysis of the deposited data

How the results depend on the processing

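The number of genes with an optimal peak stayed at 3 with windows of 1000 or 2000 bp, without gene bodies and with the nearest start only, and was 2 in the upper 239 entries of the optimal list, where rund-1 dropped out. No optimal list exists for a single replicate. The 478 highest entries of each replicate list were used instead, and 2 genes had one in reach in each case. Apart from 2.18% with the nearest start only, shares of all genes are not given for these alternative counts. All 9 genes had an entry in every setting tried. Of all 19973 genes, 10362 had one within 1000 bp of a start, 14101 within 2000 bp and 12581 with the nearest start only. In the list of replicate 1 alone 18773 genes had one, and in that of replicate 2 alone 18258. The number with a high entry in both replicates was 2 or 3. The median rank of 1270 became 8582 with the nearest start only and ranged from 3843 to 5264 without a replicate. GAGAGA was in 2 windows and CGTCTC in 0 with 50 bp on each side. The cause was not tested, apart from the shorter window, which by construction holds fewer bases. Of 63 ranks of single genes under these settings, 46 moved by less than 1 SD of the ranks in the 2 replicates and 17 by more. Most of the 17 were in the settings without a replicate, among them vps-51 at rank 114 without replicate 2 and ric-19 at rank 9529 without replicate 1. Those settings use the same 2 ranks that give the SD, so the counts do not measure stability. The SD is wide where the replicates disagree. tbc-8 at rank 16015 without replicate 1, against 13151, counted as less, while unc-108 at rank 1 by −log10 q, against 36, counted as more. Ranked by −log10 q, unc-108 and vps-51 shared the first rank. This is a tie at the value 2.58, which entries of signal rank 11 and 36 both had, so that ranking does not separate them. No paired analysis was possible because there was 1 group and no result comes from a test. The depth of the libraries is unknown, so a missing or low entry does not show that a site was unbound.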

Other observations

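The starts of the genes were also searched, from 250 bases before to 50 after the first annotated start, a window chosen after the data were seen. GAGAGA was there at unc-108, ric-19, cccp-1 and vps-51, which is 4 of 9 genes where 21.8% of 19973 genes held it. CGTCTC was there at unc-108, ric-19 and cccp-1, 3 of 9 where 11.19% of genes held it. Both words therefore occurred in the start windows of unc-108, whose highest entry was in the intron, of ric-19, and of cccp-1, whose entry 174 bp upstream of the start had rank 14697. The share of all genes with both words in this window is not given here, so nothing is read from this co-occurrence. CAGGTA or CAGGTG occurred in the start window of rund-1 alone among the 9, where 15.3% of genes held one of them. These counts are descriptions of sequence and were not tested.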
